A study of Mus musculus with 40 samples.

Results

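NRF2, encoded by Nfe2l2, is a transcription factor that KEAP1 normally marks for degradation and that accumulates under oxidative or electrophilic stress. It then binds antioxidant response elements with a small MAF partner and raises genes of glutathione synthesis, cystine uptake, thioredoxin reduction and quinone or heme detoxification. Metallothioneins are small cysteine-rich proteins that bind zinc, copper and cadmium, and their genes are induced by the zinc sensor MTF1 through metal response elements. Described here are 10 of the 51789 genes in the count table, of which 27946 had at least 1 count in a library. They were chosen by name after Ensembl identifiers were mapped to symbols, and comprise Nfe2l2, 7 genes known to be induced by NRF2 (Hmox1, Nqo1, Gclm, Gclc, Slc7a11, Txnrd1 and Srxn1) and the metallothionein genes Mt1 and Mt2.

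The genes were followed through 40 libraries of cultured mouse melanoma cells, 2 for each of 20 groups, by 3′ RNA sequencing of poly(A) RNA. The study asked how the circadian regulator Bmal1, present, lost or expressed ectopically, and the myosin heavy chain Myh9 alter melanoma cells. B16-F10 Ctrl and B16-F10 KO are a control clone and a Bmal1 knockout clone made in another laboratory. YUMM2.1 came from a transgenic tumor with mutant Braf, heterozygous loss of Cdkn2a and a stabilized β-catenin allele, and YUMM1.7 from a tumor with mutant Braf and loss of Cdkn2a, among other alleles. YUMM2.1, YUMM1.7 and YUMM2.1KO, which is the single CRISPR clone aC3 labelled as a Bmal1 knockout, each carried an empty vector (EV), wild-type Bmal1 (WT) or Bmal1 lacking its DNA binding domain (dHLH), from a GFP lentivirus followed by sorting for GFP. YUMM2.1 cells with each of the 3 constructs were also given a control hairpin (shNC) or a hairpin against Myh9 (shMyh9#2 or shMyh9#4) and selected with puromycin. By the study's methods, the YUMM2.1 and YUMM2.1KO construct cells were derived from cells that already carried a lentiviral Bmal1 promoter luciferase reporter. No treatment or time point is given in the labels. The study describes the B16-F10 and YUMM2.1 libraries and those of EV shNC, EV shMyh9#2, WT shNC and dHLH shNC as biological replicates. It also gives biological replicates for YUMM1.7, without naming a construct. For the others the spread between libraries behind the p-values may be technical.

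Totals ranged from 3643332 to 22970049 counts per library, with 19348395 or more in B16-F10 and the widest range, 3643332 to 17485144, among the hairpin cells. Levels are in CPM, the library's counts scaled to a common total after TMM scaling of library size, and log2 fold changes carry their standard error. A member is called changed at a Benjamini-Hochberg adjusted p under 0.05 over all genes tested in edgeR's quasi-likelihood test, and every adjusted p below is from that test. The pigment cell markers Mlana and Dct defined the B16-F10 libraries, with Dct at 12340 to 17370 CPM, whereas Mlana was at 0 in every YUMM library and Dct did not exceed 0.845 CPM there. Sox10 was present in YUMM2.1 cells and at most 1.51 CPM in YUMM1.7 cells, and the T cell marker Cd3e was at 0 in all 40 libraries. Summed over each list, 3 leukocyte markers reached at most 3.95 CPM in a library and 3 epithelial markers at most 8.26 CPM. The endothelial markers Pecam1 and Cdh5 summed to 3.75 to 26.4 CPM, with 7.96 to 9.99 CPM in YUMM2.1-EV shNC and 20.9 to 21.2 CPM in YUMM2.1-WT shNC, and their part in the results was not tested. Myh9 fell with both hairpins in all 3 construct backgrounds, by 0.42 to 2.04 on the log2 scale. Arntl, the gene symbol of Bmal1, did not separate B16-F10 KO from Ctrl (log2 fold change -0.07, adjusted p = 0.923). It was higher in YUMM2.1KO-EV than in YUMM2.1-EV (1.09, adjusted p = 0.00257) and lower in YUMM2.1KO-WT than in YUMM2.1KO-EV (-0.83, adjusted p = 0.00356), and YUMM2.1-WT was at 0.10 against EV (adjusted p = 1). With dHLH-Bmal1 it was higher in YUMM2.1 (1.54), YUMM1.7 (1.05) and shNC cells (0.60). A 3′ tag outside the edited part cannot check a knockout, nor can it count a construct without the native 3′ end, so these values check neither label. Of the normalized columns in the study's supplement, those of YUMM2.1 and YUMM1.7-EV were compared with the deposited libraries, and 6 of 8 matched the library of the same name. Its YUMM2.1-EV 2 is the library deposited as YUMM2.1-WT 1, and its YUMM2.1-WT 1 is the library deposited as YUMM2.1-EV 2. The mesenchymal marker Sox9 was at 18.3 and 87.2 CPM in the libraries labelled YUMM2.1-EV and 19.6 and 86.2 CPM in those labelled YUMM2.1-WT, so that the exchange puts like libraries together. Results on these groups are given as labelled, and where the exchange or leaving out a library changes a call or moves a value, that value is given too.

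The promoters of Mt2, Mt1, Gclm and Txnrd1 are shown as examples of members that hold the motifs described here and changed in comparisons below. Each is the 250 bases before a RefSeq transcription start in GRCm38.p6, the build of the counts, read 5′ to 3′ in the direction of the gene. RefSeq promoters were matched for 8 of the 10 members, all but Hmox1 and Gclc. Capitals in the metallothionein promoters mark matches to the core of the metal response element, TGCACNC or TGCGCNC on either strand.
Mt2, chr8:94172368-94172617, + strand: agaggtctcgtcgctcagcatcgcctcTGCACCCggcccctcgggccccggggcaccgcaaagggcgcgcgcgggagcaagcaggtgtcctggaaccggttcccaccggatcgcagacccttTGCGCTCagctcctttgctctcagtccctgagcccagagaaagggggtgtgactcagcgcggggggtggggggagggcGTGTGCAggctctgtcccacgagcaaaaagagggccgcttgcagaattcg
Mt1, chr8:94178839-94179088, + strand: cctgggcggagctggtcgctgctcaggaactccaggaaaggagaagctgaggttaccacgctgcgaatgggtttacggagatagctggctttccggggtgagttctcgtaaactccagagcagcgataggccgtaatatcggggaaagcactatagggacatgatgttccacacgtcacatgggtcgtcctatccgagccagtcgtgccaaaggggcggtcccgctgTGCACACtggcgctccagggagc
Mt2 held 3 such matches, at 223, 128 and 50 bases before the start, and Mt1 held 1, at 23 bases. Such matches were also in Gclm, at 138 and 72 bases, and in Srxn1, at 19 bases. Nfe2l2, Nqo1, Slc7a11 and Txnrd1 held none. Over 32851 mouse promoters of this length, 21.4% held at least 1 match and 1.26% held 3 or more. Capitals in the next pair mark the core of the antioxidant response element, TGACNNNGC on either strand, which was present in 10.2% of promoters.
Gclm, chr3:122245307-122245556, + strand: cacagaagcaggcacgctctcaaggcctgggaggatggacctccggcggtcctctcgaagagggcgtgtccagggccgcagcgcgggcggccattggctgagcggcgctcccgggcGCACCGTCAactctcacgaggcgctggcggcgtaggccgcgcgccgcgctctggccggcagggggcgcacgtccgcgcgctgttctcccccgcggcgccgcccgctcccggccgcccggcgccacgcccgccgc
Txnrd1, second annotated promoter, chr10:82858956-82859205, + strand: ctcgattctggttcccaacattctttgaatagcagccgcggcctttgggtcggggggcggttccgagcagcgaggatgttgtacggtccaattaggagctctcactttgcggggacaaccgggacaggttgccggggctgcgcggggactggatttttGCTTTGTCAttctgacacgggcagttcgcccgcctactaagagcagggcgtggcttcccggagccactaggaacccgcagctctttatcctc
This core lay 134 bases before the start of Gclm, where it overlaps a metal response element match, and 92 bases before the second start of Txnrd1. Nfe2l2 held the same core at 240 bases and Mt2 at 79 bases, and Mt1, Srxn1, Nqo1 and Slc7a11 did not hold it in this window. No member promoter held the E-box CACGTG, the motif bound by Bmal1 and Clock, which occurred in 6.02% of promoters. A match is a description of letters, and its absence from this window says nothing about binding elsewhere.

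Mt2 ranged from abundant to absent between the groups, while Mt1 was present in all of them. Mt2 (chr8:94172664-94173568, + strand, mm10) overlaps the antisense gene Gm45774 and sits upstream of Mt1 (chr8:94179082-94180327, + strand). Mt2 was highest in B16-F10 Ctrl at 610 ± 12.4 CPM (SD, n = 2) and was at 0 counts in both YUMM2.1KO-EV libraries. In the YUMM2.1KO clone, YUMM2.1KO-WT and YUMM2.1KO-dHLH each had 1 Mt2 count in the first library and 0 in the second. The same clone expressed Mt1 at 196 and 221 CPM with EV, and Mt1 stayed above 171 CPM in all 40 libraries, with its lowest group mean of 195 ± 32.8 CPM in YUMM2.1-EV. YUMM2.1-EV had 10.8 and 30.3 CPM of Mt2, so that YUMM2.1KO-EV was at least 75.2-fold lower against a floor of 3 counts per library (0 counts against 411, adjusted p = 1.11e-06). The bound was 37.9-fold with the labels exchanged, 39.5-fold without YUMM2.1-EV replicate 2 and 111-fold without replicate 1. That difference was called under all alternatives tried. YUMM2.1KO is a single clone, so its origin and the loss of Bmal1 cannot be told apart. In B16-F10 KO, Mt2 was at 424 and 258 CPM.

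**Figure D1:**
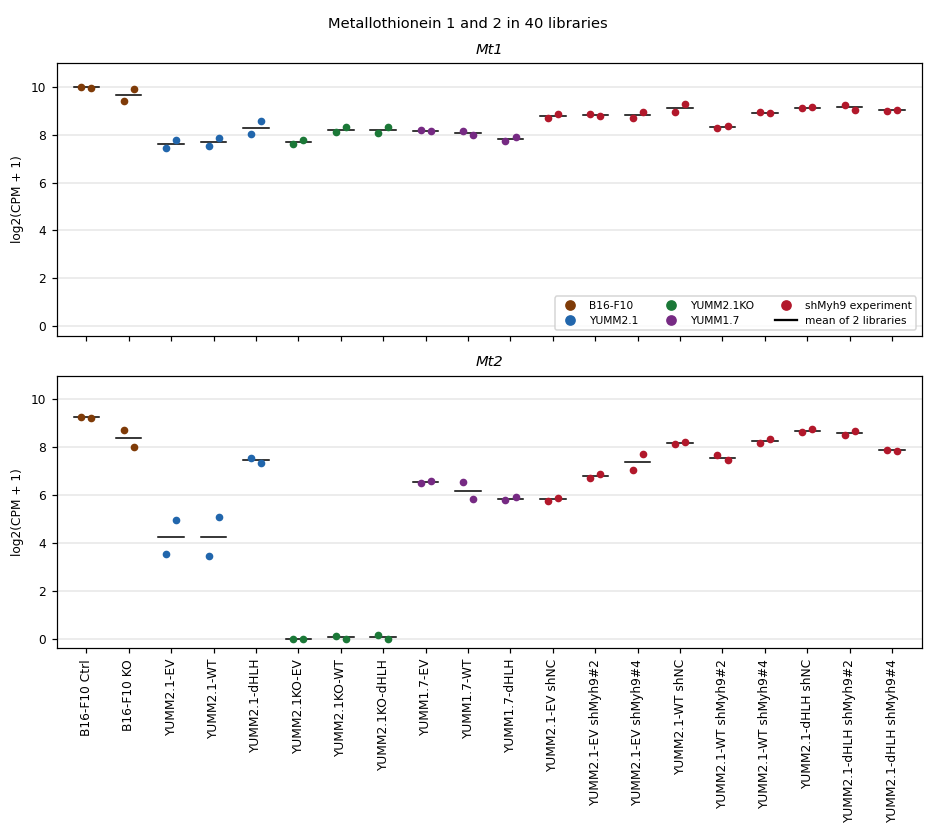
Levels of Mt1 and Mt2 in each of the 40 libraries, as log2(CPM + 1) on the vertical axis, with the 20 groups along the horizontal axis and a point per library. Mt1 is present in every group, whereas Mt2 is at or near 0 in the 3 YUMM2.1KO groups and highest in B16-F10 Ctrl.

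The balance of the pair moved as well. For each 100 Mt1 counts, Mt2 had 60.3 to 60.8 counts in B16-F10 Ctrl, 31.1 to 33.4 in YUMM1.7-EV and 6.29 to 13.9 in YUMM2.1-EV. YUMM2.1-dHLH cells had 42.6 to 72.5 and YUMM2.1-dHLH shNC cells 71.5 to 74.7 Mt2 counts on this scale. The 3 YUMM2.1KO groups did not exceed 0.0360. This ratio compares tags of 2 genes within a library, and is read only between libraries.

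Among the NRF2 targets, the lines differed most in Nqo1, a quinone reductase (chr8:107388225-107403206, - strand). YUMM1.7-EV had 14.1 and 11.4 CPM, B16-F10 Ctrl had 1.05 and 1.55 CPM, and YUMM2.1-EV had 2 counts in each library. With the control hairpin, YUMM2.1-EV shNC had 1.357 and 1.345 CPM. The ratio of YUMM1.7-EV to YUMM2.1-EV was 68.1, with an exact 95% counting interval of 26.3 to 252, which covers counting error only. YUMM2.1-dHLH had 0 counts in both libraries, which is not distinguishable from YUMM2.1-EV at this depth. Nfe2l2 itself (chr2:75675513-75704641, - strand) spanned a narrow range, from 172 ± 2.76 CPM in B16-F10 Ctrl to 379 ± 3.03 CPM in YUMM1.7-WT, and its 3 YUMM1.7 groups lay above all other groups. Slc7a11, the cystine importer subunit (chr3:49892526-50443614, - strand), ran from 11.8 ± 0.728 CPM in YUMM2.1KO-EV to 54.7 ± 1.88 CPM in YUMM1.7-WT. Txnrd1, the cytosolic thioredoxin reductase (chr10:82833951-82897712, + strand), ran from 72.1 ± 9.39 CPM in YUMM2.1-dHLH shMyh9#2 to 298 ± 23.3 CPM in B16-F10 KO. Srxn1, sulfiredoxin (chr2:152105516-152111376, + strand), ran from 39.2 ± 0.765 CPM in YUMM2.1-WT shNC to 96.1 ± 3.83 CPM in YUMM1.7-WT.

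Both subunits of glutamate-cysteine ligase, the first enzyme of glutathione synthesis, were lowest in YUMM2.1KO-dHLH. Gclc, the catalytic subunit (chr9:77754535-77794485, + strand), was highest in B16-F10 Ctrl at 42.8 ± 2.16 CPM against 15.3 ± 0.386 CPM in YUMM2.1KO-dHLH. Gclm, the modifier subunit (chr3:122245557-122270732, + strand), was highest in YUMM2.1-WT shMyh9#4 at 70.2 ± 0.775 CPM against 32.3 ± 1.94 CPM in YUMM2.1KO-dHLH. Hmox1, heme oxygenase 1 (chr8:75093621-75100589, + strand), was low throughout, from 3.88 to 17.03 CPM in single libraries. With the groups ordered by mean level, few of the 19 neighboring pairs were free of overlap between their libraries. These numbered 7 for Nfe2l2, Mt1 and Mt2, 6 for Txnrd1 and Srxn1, 4 for Nqo1, 3 for Gclm, and 2 for Hmox1, Gclc and Slc7a11. Nfe2l2, Gclm, Slc7a11, Txnrd1 and Mt2 overlap other annotated genes, and no source used here says if reads were counted by strand.

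**Figure D2:**
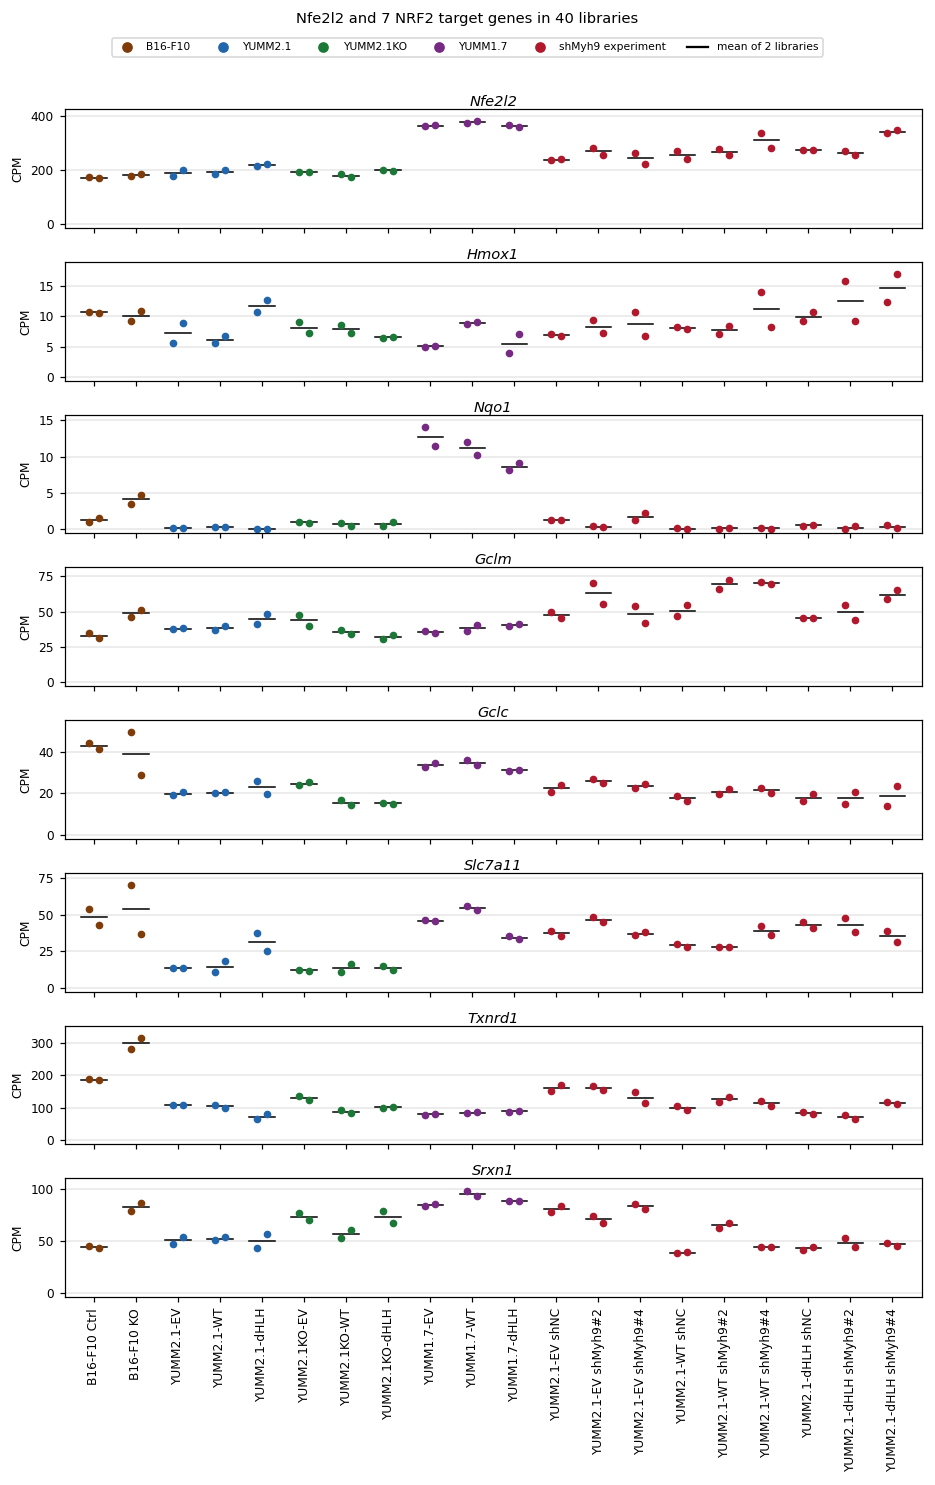
Levels of Nfe2l2 and 7 NRF2 targets in CPM, a panel per gene, with the 20 groups along the horizontal axis and a point per library. Nqo1 is highest in the 3 YUMM1.7 groups, as is Nfe2l2, Txnrd1 is highest in B16-F10 KO.

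The control groups of the lines were compared first, as the background for the constructs. YUMM1.7-EV differed from YUMM2.1-EV in 8 of 10 members, where 31.8% of all genes tested were called. Nfe2l2 was higher by 0.94 (SE 0.095, adjusted p = 5.04e-09), Slc7a11 by 1.75 (SE 0.25, adjusted p = 2.2e-06), Gclc by 0.76, Srxn1 by 0.74, Mt1 by 0.56 and Mt2 by 2.19, and Txnrd1 was lower, with a log2 fold change of -0.46. Leaving out YUMM2.1-EV replicate 1 ended the calls of Gclc (adjusted p = 0.0517) and Mt1 (0.155), YUMM1.7-EV replicate 1 those of Txnrd1 (0.0596) and Mt1 (0.0539), and YUMM1.7-EV replicate 2 those of Gclc (0.0523) and Mt1 (0.0504). With the YUMM2.1 labels exchanged the same 8 members were called, and Mt2 was 3.16 higher.

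B16-F10 Ctrl exceeded YUMM2.1-EV in 6 of 10 members, against 46.9% of all genes called in either direction. Among them were Mt2 (4.91, SE 0.41, adjusted p = 7.26e-11), Mt1 (2.37, SE 0.17, adjusted p = 2.71e-12) and Slc7a11 (1.82, SE 0.25, adjusted p = 5.27e-07). Nqo1 was 6.92 times higher on 54 counts against 4 (counting interval 2.55 to 26.3), and Gclc and Txnrd1 were higher by 1.11 and 0.77. Hmox1 (0.59, adjusted p = 0.0939) passed only with the labels exchanged (0.94, adjusted p = 0.00592) or without YUMM2.1-EV replicate 2 (0.93, adjusted p = 0.0401). Against YUMM1.7-EV, 7 of 10 members differed, where 47.6% of genes did. B16-F10 Ctrl was higher in Mt2, Mt1, Txnrd1 and Hmox1, by 2.72, 1.81, 1.23 and 1.08, and lower in Nqo1 (-3.28), Nfe2l2 (-1.08) and Srxn1 (-0.94). All 7 were called under each alternative tried. The labels give no batch, and the experiments here are sets of libraries grouped by the line and hairpin named in the labels. If the lines were processed apart, line and batch cannot be told apart. YUMM2.1 with EV was also in the hairpin experiment, with a control hairpin. Means in YUMM2.1-EV and YUMM2.1-EV shNC were 13.7 and 37.2 CPM for Slc7a11 and 50.9 and 81.2 CPM for Srxn1. For Mt1 they were 195 and 438 CPM, and for Nfe2l2 190 and 238 CPM. YUMM1.7-EV had 46.0, 85.2, 287 and 365 CPM of these genes, and B16-F10 Ctrl 48.4, 44.5, 1008 and 172 CPM. The lines were not tested against YUMM2.1-EV shNC.

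In the YUMM2.1KO clone, Gclc and Txnrd1 were lower and Mt1 was higher with both Bmal1 constructs, Srxn1 was lower with WT-Bmal1 and Gclm with dHLH-Bmal1. YUMM2.1KO-WT differed from YUMM2.1KO-EV in 4 of 8 members tested, against 11.2% of all genes. Txnrd1 was at 136 and 123 CPM with EV and 94.2 and 82.9 CPM in YUMM2.1KO-WT (-0.55, SE 0.091, adjusted p = 0.00177). Gclc was at 23.9 and 25.6 CPM against 16.9 and 14.3 CPM (-0.67, SE 0.15, adjusted p = 0.00995). Srxn1 fell from 77.5 and 70.1 CPM to 53.6 and 60.6 CPM (-0.37, SE 0.11, adjusted p = 0.0384), and Mt1 rose from 196 and 221 CPM to 278 and 316 CPM (0.51, SE 0.10, adjusted p = 0.00664). For each of these 4 genes the libraries of the 2 groups did not overlap. Members not called were apart as well, and the share of all genes apart was not counted. The lack of overlap is therefore not read as a result about these genes. Nqo1 and Mt2 were too low to be tested, and Nfe2l2 had a log2 fold change of -0.11 (adjusted p = 0.438).

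YUMM2.1KO-dHLH differed from the same EV libraries in 4 of 8 members, against 10.9% of all genes. Gclc was at 15.6 and 15.0 CPM (-0.70, SE 0.15, adjusted p = 0.00831) and Txnrd1 at 100.3 and 102.5 CPM (-0.36, SE 0.091, adjusted p = 0.0204). Gclm was at 30.9 and 33.6 CPM against 47.9 and 39.9 CPM with EV (-0.46, SE 0.12, adjusted p = 0.0274), and Mt1 was at 272 and 324 CPM (0.50, SE 0.10, adjusted p = 0.00797). Srxn1, at 79.0 and 68.1 CPM, overlapped EV. Compared directly, WT-Bmal1 and dHLH-Bmal1 differed in 0 of 8 members by edgeR and in 0 by DESeq2, against 0.877% of genes, with 1638 genes at an unadjusted p under 0.05. The member nearest the threshold was Srxn1 (-0.36, adjusted p = 0.17).

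Of the 8 calls in this clone, only that of Txnrd1 with WT-Bmal1 held without each library in turn (adjusted p at most 0.0486) and in a fit of all 40 libraries, where the others had adjusted p from 0.0885 (Srxn1) to 0.186 (Txnrd1 with dHLH-Bmal1). Without YUMM2.1KO-EV replicate 1 the adjusted p was 0.0508 for Gclc, 0.273 for Srxn1 and 0.11 for Mt1 with WT-Bmal1, and 0.219 for Gclm, 0.189 for Txnrd1 and 0.119 for Mt1 with dHLH-Bmal1. Without YUMM2.1KO-EV replicate 2 it was 0.0941 for Gclc and 0.0977 for Srxn1 with WT-Bmal1, and 0.0544 for Gclm, 0.092 for Gclc and 0.0782 for Txnrd1 with dHLH-Bmal1. YUMM2.1KO-WT replicate 1 decided the Srxn1 call (0.281 without it), YUMM2.1KO-WT replicate 2 those of Gclc (0.114), Srxn1 (0.075) and Mt1 (0.118), and YUMM2.1KO-dHLH replicate 1 that of Gclm (0.106). The clone with EV, YUMM2.1KO-EV, differed from YUMM2.1-EV in 3 of 10 members, against 2.48% of genes. A single clone is set against cells that were not cloned there, so its origin and the loss of Bmal1 cannot be told apart. Beside Mt2, Srxn1 was higher by 0.54 (SE 0.12, adjusted p = 0.00633), a call lost without YUMM2.1-EV replicate 1 (adjusted p = 0.126) or YUMM2.1KO-EV replicate 1 (adjusted p = 0.144). Nqo1 was higher on 22 counts against 4 (ratio 5.34, counting interval 1.81 to 21.3, adjusted p = 0.0491), and its call was lost without YUMM2.1-EV replicate 1 or 2 (adjusted p = 0.3 and 0.209), without YUMM2.1KO-EV replicate 1 or 2 (0.272 and 0.165) and with the labels exchanged (0.0774). It was also lost with DESeq2's size factors (0.0501) and Wald test (0.13), without a filter (0.125) and with a replicate block (0.0539).

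In YUMM2.1 cells with their own Bmal1, dHLH-Bmal1 went with much higher Mt2, higher Slc7a11 and lower Txnrd1. It changed 3 of 9 members tested, against 13.2% of all genes. Mt2 was at 10.8 and 30.3 CPM in YUMM2.1-EV and 189 and 162 CPM in YUMM2.1-dHLH (3.11, SE 0.62, adjusted p = 0.0208). Slc7a11 was at 13.7 CPM in both EV libraries and 37.7 and 25.4 CPM with dHLH-Bmal1 (1.21, SE 0.30, adjusted p = 0.0431). Txnrd1 was at 109.0 and 109.4 CPM against 64.4 and 80.5 CPM (-0.59, SE 0.14, adjusted p = 0.0398). Mt1 was above EV in both libraries, at 261 and 379 CPM against 171 and 218 CPM, and did not pass the test (0.72, SE 0.22, adjusted p = 0.0792). Hmox1 was likewise above EV, at 10.7 and 12.7 CPM against 5.56 and 8.84 CPM (0.71, adjusted p = 0.161). With a replicate block both were called, Mt1 at 0.71 (adjusted p = 0.000663) and Hmox1 at 0.73 (0.045), though the labels do not tie the numbers to shared cultures. The block called 3877 of 14323 genes in this comparison, against 1894 without it. Nfe2l2 had a log2 fold change of 0.22 (adjusted p = 0.293).

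Each of these calls depended on single libraries. The Slc7a11 call was lost with each of the 4 libraries left out (adjusted p = 0.146 and 0.103 without YUMM2.1-EV replicates 1 and 2, and 0.152 and 0.056 without YUMM2.1-dHLH replicates 1 and 2). Mt2 kept its call without YUMM2.1-EV replicate 2 (4.01) and lost it without YUMM2.1-EV replicate 1 (2.53, adjusted p = 0.0672), YUMM2.1-dHLH replicate 1 (2.99, 0.0612) or YUMM2.1-dHLH replicate 2 (3.21, 0.0558). Txnrd1 was lost without YUMM2.1-EV replicate 1 or 2 (0.14 and 0.0883) or YUMM2.1-dHLH replicate 1 (0.127). With the labels exchanged, 5 members were called, namely Mt2 (4.08, adjusted p = 1.26e-06), Slc7a11 (1.39, adjusted p = 0.00352), Hmox1 (1.06, adjusted p = 0.0101), Mt1 (0.86, adjusted p = 0.00553) and Txnrd1 (-0.58, adjusted p = 0.00991). The exchange called 4114 of 14323 genes, against 1894 as labelled.

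WT-Bmal1 against EV in YUMM2.1, as labelled, gave 0 of 9 members called by edgeR, where 0% of 14323 genes were called and 98 had an unadjusted p under 0.05. DESeq2's Wald test also called 0 members, and none was called without any single library. Mt2 was at 9.91 and 32.9 CPM in the libraries labelled YUMM2.1-WT, and so had a low and a high library under each label. After the exchange the EV libraries were at 9.91 and 10.8 CPM and the WT libraries at 30.3 and 32.9 CPM, and Mt2 was the single member called (1.60, adjusted p = 0.00253), with 101 genes called in all.

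The rise of Mt2 with dHLH-Bmal1 went together with a change in cell state markers. Sox10, a melanocyte lineage factor, was at 484 to 501 CPM in YUMM2.1-EV and 66.2 to 72.9 CPM in YUMM2.1-dHLH. The summed level of 4 mesenchymal markers went from 170.2 to 400.0 CPM in the YUMM2.1-EV libraries to 1221 to 1322 CPM with dHLH-Bmal1. YUMM2.1KO-WT and YUMM2.1KO-dHLH, where Mt2 was at 0 to 1 counts, had Sox10 at 547 to 610 CPM and a mesenchymal sum of 125 to 173 CPM, against 441 to 452 and 90.5 to 94.2 CPM in YUMM2.1KO-EV. The part of these markers in the Mt2 result was not tested, and in bulk RNA fewer cells of a type and less RNA per cell cannot be told apart.

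In YUMM1.7, dHLH-Bmal1 went with lower Mt1 and Slc7a11. YUMM1.7-dHLH against YUMM1.7-EV was called in 2 of 10 members, against 0.63% of genes. Mt1 was at 211 and 236 CPM against 292 and 283 CPM (-0.35, SE 0.063, adjusted p = 0.0136), and Slc7a11 at 35.3 and 33.3 CPM against 46.4 and 45.6 CPM (-0.42, SE 0.091, adjusted p = 0.0484). Mt2 was at 53.9 and 59.7 CPM against 90.6 and 94.5 CPM, below EV in both libraries, and missed the threshold (-0.70, SE 0.15, adjusted p = 0.0506). The Slc7a11 call was lost with each library left out (adjusted p = 0.355 without either YUMM1.7-EV replicate, and 0.161 and 0.307 without YUMM1.7-dHLH replicates 1 and 2). Mt1 was lost without YUMM1.7-EV replicate 1 or 2 (0.248 and 0.172) or YUMM1.7-dHLH replicate 1 (0.223). With WT-Bmal1, 0 of 10 members were called by edgeR and 0 by DESeq2, against 0.138% of 13816 genes, with 1423 genes at an unadjusted p under 0.05. Hmox1 was at 8.82 and 9.02 CPM with WT-Bmal1 and 4.99 and 5.15 CPM with EV (0.83, SE 0.26, adjusted p = 0.261). YUMM1.7-WT had 92.6 and 55.7 CPM of Mt2, which was called only without its replicate 1 (-0.73, adjusted p = 0.00013) or without the filter on low counts (-0.31, adjusted p = 0.0176).

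The effect of dHLH-Bmal1 on the members was compared between the backgrounds by an interaction term. Between YUMM1.7 and YUMM2.1 it differed in 4 of 10 members, against 9.42% of all genes. The effect in YUMM1.7 was lower by 3.82 for Mt2 (SE 0.51, adjusted p = 1.11e-05), by 1.63 for Slc7a11 (SE 0.34, adjusted p = 0.0019) and by 1.08 for Mt1 (SE 0.23, adjusted p = 0.00251), and higher by 0.75 for Txnrd1 (SE 0.18, adjusted p = 0.00519). The first 3 held without each library in turn and with the labels exchanged, and Txnrd1 was lost without YUMM2.1-dHLH replicate 1 (adjusted p = 0.052). Between YUMM2.1KO and YUMM2.1 the effect differed in 2 of 10 members, against 11.6% of genes, namely Gclc (-0.91, SE 0.30, adjusted p = 0.0448) and Gclm (-0.68, SE 0.20, adjusted p = 0.0204), both lower in the clone. The Gclm call was lost without YUMM2.1-EV replicate 1 (adjusted p = 0.074), YUMM2.1-dHLH replicate 2 (0.12), YUMM2.1KO-EV replicate 1 (0.124) or YUMM2.1KO-dHLH replicate 1 (0.0957). The Gclc call held only without YUMM2.1-dHLH replicate 2, and its adjusted p was 0.144 and 0.08 without YUMM2.1-EV replicates 1 and 2, 0.22 without YUMM2.1-dHLH replicate 1, 0.0784 and 0.128 without YUMM2.1KO-EV replicates 1 and 2, and 0.112 and 0.127 without YUMM2.1KO-dHLH replicates 1 and 2. With the labels exchanged 4 members differed, Hmox1 (-1.38, adjusted p = 0.0166) and Slc7a11 (-1.20, adjusted p = 0.0154) in addition. The exchange called 2639 of 16619 genes, against 1920 as labelled. Without YUMM2.1-dHLH replicate 2, Slc7a11 was at -1.26.

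**Figure D3:**
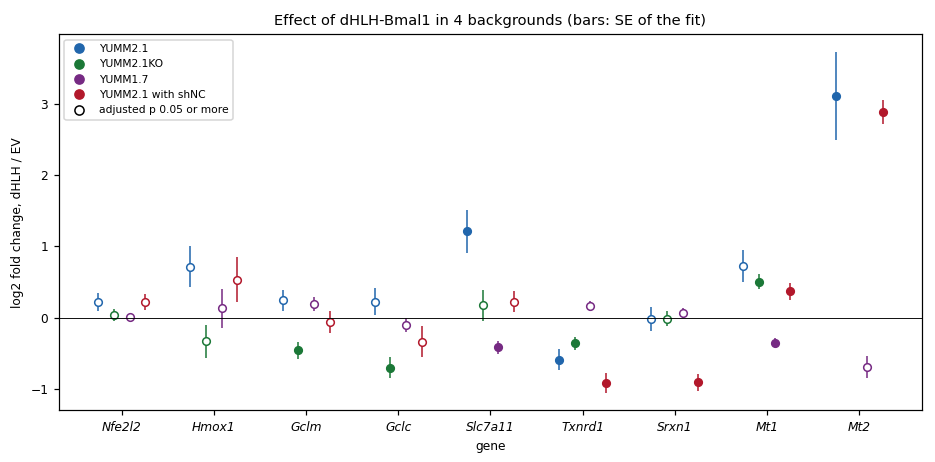
Log2 fold change of dHLH-Bmal1 against EV with its standard error for 9 members (all but Nqo1) in YUMM2.1KO, YUMM2.1, YUMM1.7 and YUMM2.1 shNC cells, with filled points for members called and open points for the others. Mt2 is higher in both YUMM2.1 backgrounds, by 3.11 and 2.89, and lower in YUMM1.7, by 0.70 without passing the threshold.

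In the shNC cells, Mt2 and Mt1 were higher and Txnrd1 and Srxn1 lower with both constructs. YUMM2.1-WT shNC differed from YUMM2.1-EV shNC in 5 of 10 members, against 22.3% of all genes. Mt2 was at 53.2 and 58.5 CPM with EV and 282 and 294 CPM with WT-Bmal1 (2.37, SE 0.17, adjusted p = 1.74e-08). Srxn1 was at 78.7 and 83.8 CPM against 38.6 and 39.7 CPM (-1.05, SE 0.12, adjusted p = 4.37e-06), and Txnrd1 at 150.3 and 169 CPM against 107 and 91.9 CPM (-0.69, SE 0.14, adjusted p = 0.00154). Mt1 rose from 412 and 464 CPM to 499.7 and 633 CPM (0.37, SE 0.12, adjusted p = 0.0278). Nqo1 had 23 counts with EV and 1 with WT-Bmal1, a ratio of 21.3 with a counting interval of 3.46 to 878 (adjusted p = 0.0236).

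YUMM2.1-dHLH shNC differed from YUMM2.1-EV shNC in 4 of 10 members, against 26.4% of genes. Mt2 was at 394 and 429 CPM (2.89, SE 0.17, adjusted p = 7.97e-10), Txnrd1 at 87.4 and 80.6 CPM (-0.92, SE 0.14, adjusted p = 7.54e-05) and Srxn1 at 41.6 and 44.8 CPM (-0.91, SE 0.12, adjusted p = 1.18e-05). Mt1 was at 551 and 573 CPM (0.37, SE 0.12, adjusted p = 0.0267). Slc7a11, called in YUMM2.1-dHLH without hairpin, was at 45.1 and 40.9 CPM against 39.1 and 35.3 CPM (0.22, adjusted p = 0.301). The Mt2, Srxn1 and Txnrd1 calls with both constructs held under every alternative tried. The Nqo1 call with WT-Bmal1 was lost without YUMM2.1-EV shNC replicate 1 or 2 (adjusted p = 0.0896 and 0.0884) or YUMM2.1-WT shNC replicate 1 or 2 (0.0557 and 0.217). The Mt1 call with dHLH-Bmal1 was lost without YUMM2.1-EV shNC replicate 1 or 2 (0.238 and 0.0503) or YUMM2.1-dHLH shNC replicate 1 or 2 (0.0808 and 0.163). Mt1 with WT-Bmal1 held only without YUMM2.1-WT shNC replicate 1, its adjusted p being 0.236 and 0.0576 without YUMM2.1-EV shNC replicates 1 and 2 and 0.391 without YUMM2.1-WT shNC replicate 2. In a fit of all 40 libraries Mt1 was not called with WT-Bmal1 (0.112) or dHLH-Bmal1 (0.114). Both comparisons share the EV shNC libraries. Sox10 was at 329.9 to 334 CPM in EV shNC, 98.7 to 99.8 CPM in WT shNC and 22.7 to 26.1 CPM in dHLH shNC, and the mesenchymal sum was 306 to 309, 939 to 1050 and 1239 to 1247 CPM. Their part in these results was not tested.

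Mt2 was higher with both hairpins against Myh9 in YUMM2.1-EV cells. With shMyh9#2 Mt2 was at 104 and 117 CPM (0.99, SE 0.16, adjusted p = 0.00101), the sole call among 10 members, against 6.65% of genes. With shMyh9#4 it was at 129.9 and 211 CPM (1.60, SE 0.16, adjusted p = 2.35e-05), again the sole call, against 1.71% of genes. Both held without each library in turn, and the first was lost in a fit of all 40 libraries (adjusted p = 0.108). All 4 knockdown libraries lay above the shNC libraries at 53.2 and 58.5 CPM, and Mt1 did not follow, at 416 to 491 CPM against 412 to 464 CPM. Myh9 was at 239 CPM on average with shMyh9#2 and 479 CPM with shMyh9#4, so the hairpin that left more Myh9 had the larger Mt2 change. Effects of the hairpins other than on Myh9 were not tested. Sox10 was at 181 to 191 CPM with shMyh9#2 and 224 to 267 CPM with shMyh9#4, and the mesenchymal sum at 685 to 701 and 568 to 623 CPM, and their part was not tested.

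In cells that carried WT-Bmal1 or dHLH-Bmal1, Mt2 was not called higher in any of the 4 knockdown comparisons. YUMM2.1-WT shMyh9#2 against shNC was called in 3 of 10 members, against 4.76% of genes. Mt1 was at 311 and 333 CPM against 499.7 and 633 CPM (-0.82, SE 0.12, adjusted p = 0.000341), Mt2 at 201 and 178 CPM against 282 and 294 CPM (-0.61, SE 0.15, adjusted p = 0.0292), and Srxn1 at 63.1 and 67.8 CPM against 38.6 and 39.7 CPM (0.73, SE 0.12, adjusted p = 0.000878). The Mt1 and Srxn1 calls held under every alternative tried, and that of Mt2 was lost without YUMM2.1-WT shNC replicate 1 or 2 (adjusted p = 0.114 and 0.191) or YUMM2.1-WT shMyh9#2 replicate 1 or 2 (0.111 and 0.28), and in a fit of all 40 libraries (0.374). Sox10 was at 34.9 to 36.8 CPM with shMyh9#2 against 98.7 to 99.8 CPM in shNC, and the mesenchymal sum at 1063 to 1088 against 939 to 1050 CPM, and their part was not tested. With shMyh9#4 the same cells had 0 of 10 members called by edgeR and 0 by DESeq2, against 0.236% of genes, with 1794 genes at an unadjusted p under 0.05, and Mt2 was at 285 and 326 CPM.

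YUMM2.1-dHLH shMyh9#4 was called in 3 of 10 members, against 15.1% of genes. Mt2 was at 235 and 231 CPM against 394 and 429 CPM in shNC (-0.80, SE 0.16, adjusted p = 0.00332), Txnrd1 at 117 and 112 CPM against 87.4 and 80.6 CPM (0.46, SE 0.14, adjusted p = 0.0345) and Gclm at 59.2 and 65.0 CPM against 45.3 and 45.2 CPM (0.48, SE 0.16, adjusted p = 0.0468). The Txnrd1 and Gclm calls were lost without YUMM2.1-dHLH shNC replicate 1 (adjusted p = 0.104 and 0.183) or 2 (0.175 and 0.158) and without YUMM2.1-dHLH shMyh9#4 replicate 1 (0.113 and 0.0733) or 2 (0.155 and 0.31), and that of Mt2 without YUMM2.1-dHLH shMyh9#4 replicate 2 (adjusted p = 0.0616) or in a fit of all 40 libraries (0.114). Sox10 was at 44.5 to 45.9 CPM with shMyh9#4 against 22.7 to 26.1 CPM in shNC, and the mesenchymal sum at 1148 to 1204 against 1239 to 1247 CPM, and their part was not tested. With shMyh9#2, 0 of 10 members were called by edgeR and 0 by DESeq2, against 0.559% of genes, with 1515 genes at an unadjusted p under 0.05, and Mt2 was at 366 and 408 CPM. The effect of shMyh9#2 on Mt2 was lower by 1.08 in YUMM2.1-dHLH than in YUMM2.1-EV (SE 0.22, adjusted p = 0.0118), the sole member of 10 to differ, against 3.29% of genes. That call was lost without YUMM2.1-EV shNC replicate 1 or 2 (adjusted p = 0.084 and 0.0578), YUMM2.1-EV shMyh9#2 replicate 2 (0.0671) or YUMM2.1-dHLH shNC replicate 2 (0.0737), and in a fit of all 40 libraries (0.285).

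In B16-F10, loss of Bmal1 was called in 0 of 10 members by edgeR and 1 by DESeq2 (Srxn1), against 0.44% of all genes, with 1715 genes at an unadjusted p under 0.05. For some members the KO and Ctrl libraries did not overlap, without a call in edgeR's test. The share of all genes without such overlap was not counted. Srxn1 was at 78.8 and 87.1 CPM in KO against 45.5 and 43.6 CPM in Ctrl (0.89, SE 0.16, adjusted p = 0.139), and Txnrd1 at 282 and 314 CPM against 188 and 186 CPM (0.67, SE 0.16, adjusted p = 0.232). Gclm was at 46.1 and 51.3 CPM against 34.8 and 31.1 CPM (0.56, adjusted p = 0.343), Nqo1 at 3.55 and 4.70 CPM against 1.05 and 1.55 CPM (1.65, SE 0.41, adjusted p = 0.234), and Mt2 at 424 and 258 CPM against 619 and 601 CPM (-0.85, adjusted p = 0.332). The KO libraries differed from each other more than those of any other group, with a mean chi-square per gene of 96.5, and in Slc7a11 they stood at 70.3 and 37.1 CPM around Ctrl at 54.1 and 42.7 CPM. With 1 KO library left out, the spread came from the Ctrl libraries alone. The log2 fold change of Slc7a11 was then -0.39 without B16-F10 KO replicate 1 and 0.53 without B16-F10 KO replicate 2. Fitted together with all 40 libraries, the 4 higher members Srxn1, Txnrd1, Gclm and Nqo1 were called, with adjusted p from 2.79e-06 to 0.00726. That fit called 1952 of 16619 genes in this comparison, against 64 of 14556 in the main fit.

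**Figure D4:**
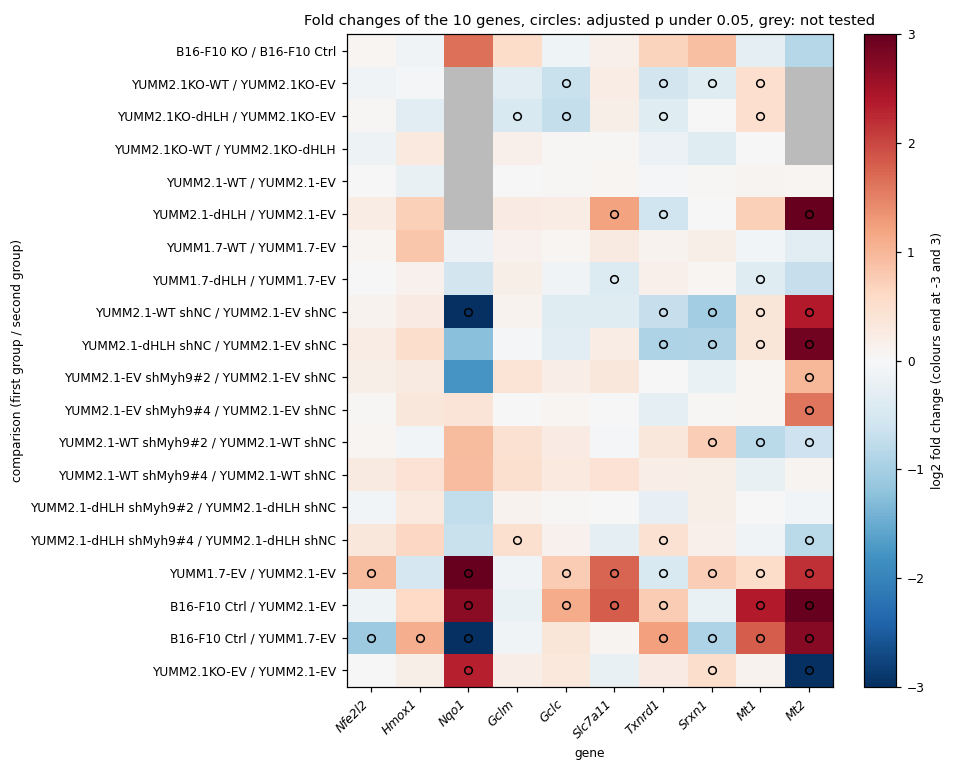
Log2 fold changes of the 10 members (columns) in 20 comparisons of 2 groups (rows), with colors ending at 3 in either direction, circles for members called and grey for members not tested. Mt2 was called in 11 of the 20 comparisons, 8 higher and 3 lower, and Hmox1 in 1. The share of all genes called ran from 0% to 47.6% between comparisons.

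Over the 20 comparisons of 2 groups, members were called 54 times. YUMM1.7-EV against YUMM2.1-EV and B16-F10 Ctrl against YUMM2.1-EV and YUMM1.7-EV gave 8, 6 and 7 of these calls. There 31.8%, 46.9% and 47.6% of all genes were called. In the other comparisons that share ran from 0% to 26.4%, and no share was pooled over comparisons. Mt2 was higher in 8 and lower in 3, Mt1 higher in 7 and lower in 2, and Txnrd1 higher in 3 and lower in 6. Srxn1 was called in 7 comparisons, Nqo1 in 5, and Slc7a11 and Gclc in 4 each. Nfe2l2 was called in 2, both of them differences of YUMM1.7-EV from another line, Gclm in 2 and Hmox1 in 1. The median log2 fold change of the members tested was -0.21 with WT-Bmal1 and -0.18 with dHLH-Bmal1 in YUMM2.1KO and 0.24 with dHLH-Bmal1 in YUMM2.1, against 0.01, 0.01 and -0.01 over all genes tested. Many of these comparisons share a control group, so their counts are not independent.

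Genes around NRF2 and the metal response were read from 5 further lists. In the YUMM2.1KO clone their counts stand against 11.2% of all genes called with WT-Bmal1 and 10.9% with dHLH-Bmal1. With WT-Bmal1 in the YUMM2.1KO clone, 4 of 15 genes of glutathione and cystine metabolism were called, all lower, and the list median was -0.28 against 0.01 for all genes. They included Slc3a2, the partner subunit of Slc7a11 (-0.47, adjusted p = 0.00231), the glutathione peroxidase Gpx1 (-0.41) and the mitochondrial thioredoxin Txn2 (-0.40). With dHLH-Bmal1 3 of 15 were lower, Prdx3 (-0.47), Txn2 (-0.43) and Slc3a2 (-0.39). Other NRF2 targets moved both ways in this clone, with 5 higher and 2 lower of 26 for WT-Bmal1, where Aldh3a1 rose by 1.55, Ugdh by 0.57 and Idh1 by 0.56, and 4 higher and 3 lower for dHLH-Bmal1, where glutathione reductase Gsr (-1.18), thioredoxin Txn1 (-0.77) and the exporter Abcc1 (-0.54) fell. Of 16 metal response genes, 4 were lower with WT-Bmal1, among them the zinc importer Slc39a14 (-0.47), the transferrin receptor Tfrc (-0.43) and the zinc exporter Slc30a4 (-0.42), and 1 with dHLH-Bmal1, Slc30a6 (-0.75). Of 13 NRF2 regulators, Mafg, a small MAF partner, was lower with both constructs (-0.30 and -0.31). The regulator counts, and the metal count with dHLH-Bmal1, were below the share of all genes. No gene of the heme metabolism list (0 of 11) was called by edgeR in either.

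In YUMM2.1-dHLH against YUMM2.1-EV, where 13.2% of all genes were called, 8 of 30 other NRF2 targets were called, 7 of them higher, with Pir at 3.54, Gstm1 at 1.89 and the glycine transporter Slc6a9 at 1.02. The glutathione list had 2 of 15 higher, Chac1, a glutathione-degrading enzyme (2.51), and Slc3a2 (0.81), and the metal list 3 higher and 1 lower of 17, with Slc39a13 at 1.22, Slc30a4 at 0.73 and Tfrc at -0.59. Nfe2l1, a relative of NRF2, was the single regulator of 13 called (0.70), and 0 of 11 heme genes were. The glutathione count was near the share of all genes, and the regulator and heme counts were below it. With shMyh9#2 in EV cells, against 6.65% of all genes, 8 of 31 other targets were called, 6 higher, with Gstm1 at 1.47, the aldehyde dehydrogenase Aldh3a1 at 1.21 and Idh1 at -0.92, and Chac1 (1.05), Prdx6 (0.37), Tfrc (-0.84) and Rbx1 (-0.48) were the calls of the other lists. The metal and heme counts were below the share of all genes there, and the regulator count was near it. Between YUMM1.7-EV and YUMM2.1-EV, against 31.8% of all genes, 15 of 33 other targets differed, 8 higher and 7 lower in YUMM1.7, with Pir at 4.73, Mgst1 at -3.55 and Aldh3a1 at -3.33. There the glutathione list had 6 higher and 2 lower of 16, led by Ggct (-2.41), Chac1 (1.91) and Glrx (1.27), the metal list 2 higher and 3 lower of 18, with Slc30a4 at 1.62, Slc39a10 at -0.71 and Mtf1 at 0.56, and the heme list 2 higher and 1 lower of 11, Cpox (0.78), Alad (0.63) and Alas1 (-0.76). Of 13 regulators, Nfe2l1 (0.66) and Mafg (0.34) were higher in YUMM1.7. The counts of the metal, heme and regulator lists were below the share of all genes there.

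Keap1, which targets NRF2 for degradation, Bach1, a repressor at the same elements, and Mtf1 were not called with any construct in YUMM2.1KO, YUMM2.1 or YUMM1.7. Mtf1 had a log2 fold change of 0.45 (adjusted p = 0.127) in YUMM2.1-dHLH, where Mt2 rose. Keap1 was higher in YUMM2.1-WT shNC against EV shNC (0.34, adjusted p = 0.0196) and in YUMM2.1-dHLH shMyh9#4 against shNC (0.41, adjusted p = 0.0114), and Bach1 in the latter (0.74, adjusted p = 0.0291).

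Across the 20 group means of log2 CPM, the members did not move as a block. The highest Pearson correlation was between Slc7a11 and Mt2 (0.83), followed by Nqo1 and Srxn1 (0.78) and Nqo1 and Gclc (0.69), Mt1 and Mt2 were at 0.62, and Hmox1 and Srxn1 were lowest at -0.52. Of genes with a mean of at least 10 CPM, those closest to Mt2 were Ak4 (0.97), Bnc2 (0.96) and Pon3 (0.96), and those closest to Mt1 were Tmem192 (0.93), Bri3 (0.91) and Hipk2 (0.91). Nfe2l2 was closest to Fam126a and Galnt1 (both 0.94), Txnrd1 to Dicer1, Wbp11 and Nup50 (each 0.94), Gclc to Anp32b (0.92), Nqo1 to Eva1b (0.91), Srxn1 to Ywhag (0.89), Gclm to Eif2b5 (0.88) and Hmox1 to Nuak1 (0.79). These values describe 20 groups that share cell lines and experiments. Some rest on levels near the floor. Mt2 did not exceed 0.0980 CPM in any YUMM2.1KO library, and these groups were among the lowest in Slc7a11, with means of 11.8 to 13.7 CPM. Nqo1 had a median of 6 counts per library.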

How the data were processed

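RNA of 40 libraries in 20 groups was extracted with TRIzol, treated with DNaseI and made into QuantSeq 3′ libraries, read as 75-base single reads. The authors aligned reads to mm10 with bowtie2 and deposited RSEM estimated counts per Ensembl gene (RSEM 1.2.3 per the submitters' processing notes), held as whole numbers and used as deposited. A 3′ tag samples the end of a transcript, so counts do not depend on gene length, and whether strand was used is not given in the sources used here. Symbols and positions came from GENCODE M21, and promoters from RefSeq (GRCm38.p6).

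Counts were fitted with edgeR 4.0.16 (limma 3.58.1, R 4.3.3), with TMM scaling, filterByExpr and the quasi-likelihood F test, 1 fit per experiment. Comparisons between lines and the interactions of dHLH-Bmal1 with line used a fit of all 40 libraries. Adjusted p-values are Benjamini-Hochberg over all genes tested, with a threshold of 0.05. Scripts were tested on simulated data. Counting intervals are exact 95% binomial intervals, cover counting error only, and the floor for 0 counts is 3 counts.

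The members, the 5 other gene lists and the marker lists were chosen with earlier results of these data known. From the lists, the 3 genes with the largest change among those called were named in 5 comparisons, and Keap1, Bach1 and Mtf1 always. Similar genes are the 3 with the highest Pearson correlation over 20 group means (prior count 2), of genes averaging at least 10 CPM. Alternatives were DESeq2 1.42.0 with its Wald test, its size factors, no filter, a replicate block, a fit of all libraries, a fit of the compared experiments only, exchanged YUMM2.1 labels, and leaving out each library. Replicate numbers came from the labels, which do not tie them to a shared day or culture, and they were not treated as pairs. Some items are not reported here.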

Additional observations from a re-analysis of the deposited data

Results flagged for a closer look

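The effect of dHLH-Bmal1 against EV differed between cell backgrounds, by an interaction term in edgeR, in 6 cases. On the log2 scale the effect in YUMM1.7 minus that in YUMM2.1 was -3.82 for Mt2, -1.63 for Slc7a11, -1.08 for Mt1 and 0.75 for Txnrd1. The effect in YUMM2.1KO minus that in YUMM2.1 was -0.91 for Gclc and -0.68 for Gclm. Neither subunit of glutamate-cysteine ligase was called in YUMM2.1 itself, with log2 fold changes of 0.22 for Gclc and 0.24 for Gclm, and both were lower in the clone.

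The effect of shMyh9#2 against shNC on Mt2 in YUMM2.1-dHLH minus that in YUMM2.1-EV was -1.08, with Mt2 higher by 0.99 in EV cells and at -0.09 (adjusted p = 0.908, edgeR) in dHLH cells. The EV shNC level of Mt2 was 55.8 ± 3.80 CPM and the dHLH shNC level 412 ± 24.2 CPM (SD, n = 2).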

How the results depend on the processing

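Of 61 calls of members, 32 held under every alternative, 33 without each library in turn and 42 under every other setting. In B16-F10 KO against Ctrl, where 0 members were called, DESeq2's Wald test and the absence of a filter each called 1 and the fit of all 40 libraries 4. Over all genes these called 390, 444 and 1952, against 64 in the main fit. The fit of all 40 libraries called 1 member with WT-Bmal1 and 0 with dHLH-Bmal1 in YUMM2.1KO, 0 with dHLH-Bmal1 in YUMM1.7, 0 with shMyh9#2 in EV cells and 0 for the shMyh9#2 interaction. With dHLH-Bmal1 in YUMM1.7, DESeq2's size factors and its Wald test called 1 member each. Without a filter 1 member was called with WT-Bmal1 in YUMM1.7 and 1 in YUMM2.1KO-EV against YUMM2.1-EV, as with only the experiments compared. With the YUMM2.1 labels exchanged, 1 member was called with WT-Bmal1, 5 with dHLH-Bmal1 and 4 for the interaction of YUMM2.1KO with YUMM2.1. Over all genes, 101, 4114 and 2639 were then called, against 0, 1894 and 1920 as labelled. The cause was not tested.

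With a replicate block, 5 members were called with dHLH-Bmal1 in YUMM2.1 and 1 in YUMM1.7, and no other member count moved by over 1.5 times. Over all genes, the block called 3877 against 1894 in YUMM2.1 and 66 against 87 in YUMM1.7. Deviations of same-numbered libraries correlated by 0.242 on average in YUMM2.1 (0.133 to 0.297), 0.087 in B16-F10, 0.0265 in YUMM2.1KO, 0.00543 in YUMM1.7 and -0.00416 among hairpin cells (-0.107 to 0.159), as a hint from the data and not from the design.

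Leaving out 1 library gave these ranges of members called. They were 0 to 7 in B16-F10 KO against Ctrl, 1 to 3 with WT-Bmal1 and 1 to 4 with dHLH-Bmal1 in YUMM2.1KO, 0 to 0 between these constructs, 0 to 0 with WT-Bmal1 and 0 to 1 with dHLH-Bmal1 in YUMM2.1, and 0 to 1 with either in YUMM1.7. In shNC cells they were 3 to 4 with WT-Bmal1 and 3 to 3 with dHLH-Bmal1. With shMyh9#2 and shMyh9#4 they were 1 to 1 and 1 to 1 in EV cells, 2 to 2 and 0 to 0 in WT cells, and 0 to 0 and 0 to 1 in dHLH cells. Between lines they were 6 to 8 for YUMM1.7-EV and 6 to 7 for B16-F10 Ctrl against YUMM2.1-EV, 7 to 7 for B16-F10 Ctrl against YUMM1.7-EV, and 1 to 2 for YUMM2.1KO-EV against YUMM2.1-EV. The interactions gave 3 to 4 for YUMM1.7, 0 to 2 for YUMM2.1KO and 0 to 1 for shMyh9#2. Slc7a11 in B16-F10 KO turned from 0.14 to -0.39 without B16-F10 KO replicate 1, and was 0.53 without replicate 2. With 1 library left in a group, its spread is taken from the other groups of the fit. The number of all genes called moved as well when a library was left out, so these ranges are not results about the members alone. Depth limits Nqo1 and, in YUMM2.1KO, Mt2, at a few counts per library.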
